A study of Mus musculus with 12 samples.

Results

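Expression of 10 genes of hepatic steroid hormone metabolism was followed in mouse liver under calorie restriction (CR), namely Hsd3b2, Hsd3b3, Hsd3b5, Hsd11b1, Hsd17b2, Hsd17b6, Hsd17b11, Hsd17b13, Srd5a1 and Akr1c6. They were chosen by symbol as enzymes that make, convert or inactivate steroid hormones and close relatives of these, and all 10 are among the 24537 genes of the deposited table. The livers came from male C57Bl/6J mice that entered the study at 6 weeks of age and were housed individually. Con mice ate ad libitum (Ad Lib), and CR mice received 30% less food than the ad libitum group ate. The paper states that CR mice ate a fortified form of the Con diet, with weekly adjustments by body weight. Diet composition and restriction can therefore not be told apart in CR against Con. RNA-Seq was available for 3 Con and 3 CR mice at day 25 of the intervention and for 3 Con and 3 CR mice at day 30, which gives 12 libraries, each from a separate mouse by its label. None of these groups carried a transgene, deletion or drug. The paper reports that mice received heavy water in the days before sacrifice. CR mice were fed once daily.

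The liver is a main site where circulating steroids are activated and cleared. Hydroxysteroid dehydrogenases pass hydrogen between a hydroxyl and a keto group of the steroid, which turns a weak hormone into a strong one or the reverse. Reductases act on the double bond of the first ring and send testosterone towards dihydrotestosterone or glucocorticoids towards inactive products. Several of these enzymes are known to differ between male and female rodent liver, where the pattern of growth hormone release sets their levels.

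The 3 Hsd3b genes lie in 1 cluster on chromosome 3 (mm10), in the order Hsd3b5 (chr3:98618636-98645534), Hsd3b2 (chr3:98711107-98724543) and Hsd3b3 (chr3:98741476-98762410), all on the minus strand. The gap is 65.6 kb between Hsd3b5 and Hsd3b2 and 16.9 kb between Hsd3b2 and Hsd3b3. Their transcripts are 93.2% identical between Hsd3b2 and Hsd3b3, 78.1% between Hsd3b2 and Hsd3b5, and 79.0% between Hsd3b3 and Hsd3b5. The 250 bases before each start site (RefSeq, GRCm38.p6, minus strand, 5′ to 3′) are shown because the levels of these neighbouring genes differed so much under CR at day 30. The windows are chr3:98645535-98645784 for Hsd3b5, chr3:98762411-98762660 for Hsd3b3 and chr3:98724544-98724793 for Hsd3b2. Capitals in the Hsd3b5 line mark bases identical to Hsd3b3, and capitals in the Hsd3b3 and Hsd3b2 lines mark bases identical to Hsd3b5, in the best local alignment of each pair.
Hsd3b5: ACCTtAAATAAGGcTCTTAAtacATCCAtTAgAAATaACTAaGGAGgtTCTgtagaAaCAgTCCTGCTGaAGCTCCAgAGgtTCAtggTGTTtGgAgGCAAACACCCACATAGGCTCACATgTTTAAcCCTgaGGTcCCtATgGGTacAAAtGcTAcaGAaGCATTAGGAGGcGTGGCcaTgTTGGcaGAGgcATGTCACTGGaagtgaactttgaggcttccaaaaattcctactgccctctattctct
Hsd3b3: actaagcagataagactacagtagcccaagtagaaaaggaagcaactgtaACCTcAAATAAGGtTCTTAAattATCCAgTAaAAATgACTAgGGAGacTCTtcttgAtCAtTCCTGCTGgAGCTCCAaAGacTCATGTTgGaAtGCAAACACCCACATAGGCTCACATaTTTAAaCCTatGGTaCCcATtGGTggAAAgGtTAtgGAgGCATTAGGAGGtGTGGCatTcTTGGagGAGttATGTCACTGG
Hsd3b2: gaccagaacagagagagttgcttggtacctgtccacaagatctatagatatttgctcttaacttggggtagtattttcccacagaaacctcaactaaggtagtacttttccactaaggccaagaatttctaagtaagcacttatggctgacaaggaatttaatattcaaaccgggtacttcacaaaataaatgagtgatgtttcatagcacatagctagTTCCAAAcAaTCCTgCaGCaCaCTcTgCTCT

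The Hsd3b5 and Hsd3b3 windows aligned over 200 bases, of which 153 (76.5%) were identical, with the start site of Hsd3b3 placed 47 bases upstream of that of Hsd3b5. The Hsd3b2 window aligned with that of Hsd3b5 over 31 bases next to the start site, 23 of them identical.

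The promoters of Hsd11b1 (chr1:193242361-193242610, minus strand) and Srd5a1 (chr13:69611464-69611713, minus strand) are shown because these are the 2 genes that passed the test at both days, in opposite directions. Capitals mark CG pairs.
Hsd11b1: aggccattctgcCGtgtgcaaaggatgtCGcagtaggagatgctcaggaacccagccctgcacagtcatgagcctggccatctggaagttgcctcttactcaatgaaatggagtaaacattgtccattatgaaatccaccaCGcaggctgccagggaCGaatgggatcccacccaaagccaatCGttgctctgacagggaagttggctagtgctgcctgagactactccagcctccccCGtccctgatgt
Srd5a1: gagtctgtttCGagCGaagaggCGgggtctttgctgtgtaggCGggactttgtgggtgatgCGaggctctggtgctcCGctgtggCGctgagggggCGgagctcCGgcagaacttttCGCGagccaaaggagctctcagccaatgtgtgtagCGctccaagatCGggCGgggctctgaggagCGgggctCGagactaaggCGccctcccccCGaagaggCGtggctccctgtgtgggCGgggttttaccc

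The Srd5a1 window held 20 CG pairs, more than 82.3% of all promoter windows, and the Hsd11b1 window held 6, which is the median of all windows. Hsd17b11 had 13 CG pairs and Hsd17b13 had 3, Hsd3b2 and Hsd3b5 had 1 each, and Hsd3b3, Hsd17b6 and Akr1c6 had 0. Windows were available for 9 of the 10 genes (all but Hsd17b2). Searched on both strands, the STAT-type palindrome TTCNNNGAA had no match in these 9 windows, while 7.18% of 27025 promoter windows of the same length held it. The steroid receptor half-site AGAACA (16.2% of windows) matched once, in Hsd3b2, at 246 to 241 bases before the start. The nuclear receptor half-site AGGTCA (13.8% of windows) matched once, in Hsd17b13, on the opposite strand at 96 to 91 bases before the start. Such matches are descriptions of the letters in these windows.

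Levels are given as deposited FPKM, which scale the fragments on the exons of a gene by exon length and by library size. Library depth, recovered from the steps of the low FPKM values, was 15.75 to 23.35 M reads, and every gene of the set reached the filter of 1 FPKM in at least 3 libraries, which 10593 genes passed. Tests compared log2(FPKM + 1) between groups with limma, and a gene passed at a Benjamini-Hochberg adjusted p under 0.1 over these 10593 genes. Fold changes are on that log2 scale, which understates the change of genes with low FPKM. With 3 mice against 3, an exact permutation test of 1 gene cannot go below a p of 0.1, so no such test is given. All 5 hepatocyte markers were present, with summed FPKM of 35670 to 63670 per library. In a whole liver sample, fewer cells of a type and less RNA per cell cannot be told apart.

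Over the 12 libraries, the mean level fell in the order Akr1c6 (546.8 FPKM), Hsd11b1 (371.8), Hsd17b13 (295.6), Hsd17b6 (134.3), Hsd17b11 (109.3), Hsd3b3 (65.6), Hsd17b2 (63.0), Hsd3b5 (18.9), Srd5a1 (18.0) and Hsd3b2 (12.4). The ranges of all neighbours in this order overlapped. Within libraries, Hsd17b13 was above Hsd17b6 in 12 of 12, Hsd17b11 above Hsd3b3 in 12 of 12 and Hsd17b2 above Hsd3b5 in 12 of 12, whereas Hsd3b3 was above Hsd17b2 in 5 of 12 and Hsd3b5 above Srd5a1 in 4 of 12. The highest library exceeded the lowest 348-fold for Hsd3b5, 5.15-fold for Hsd17b6 and 1.41-fold for Hsd17b13.

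**Figure D1:**
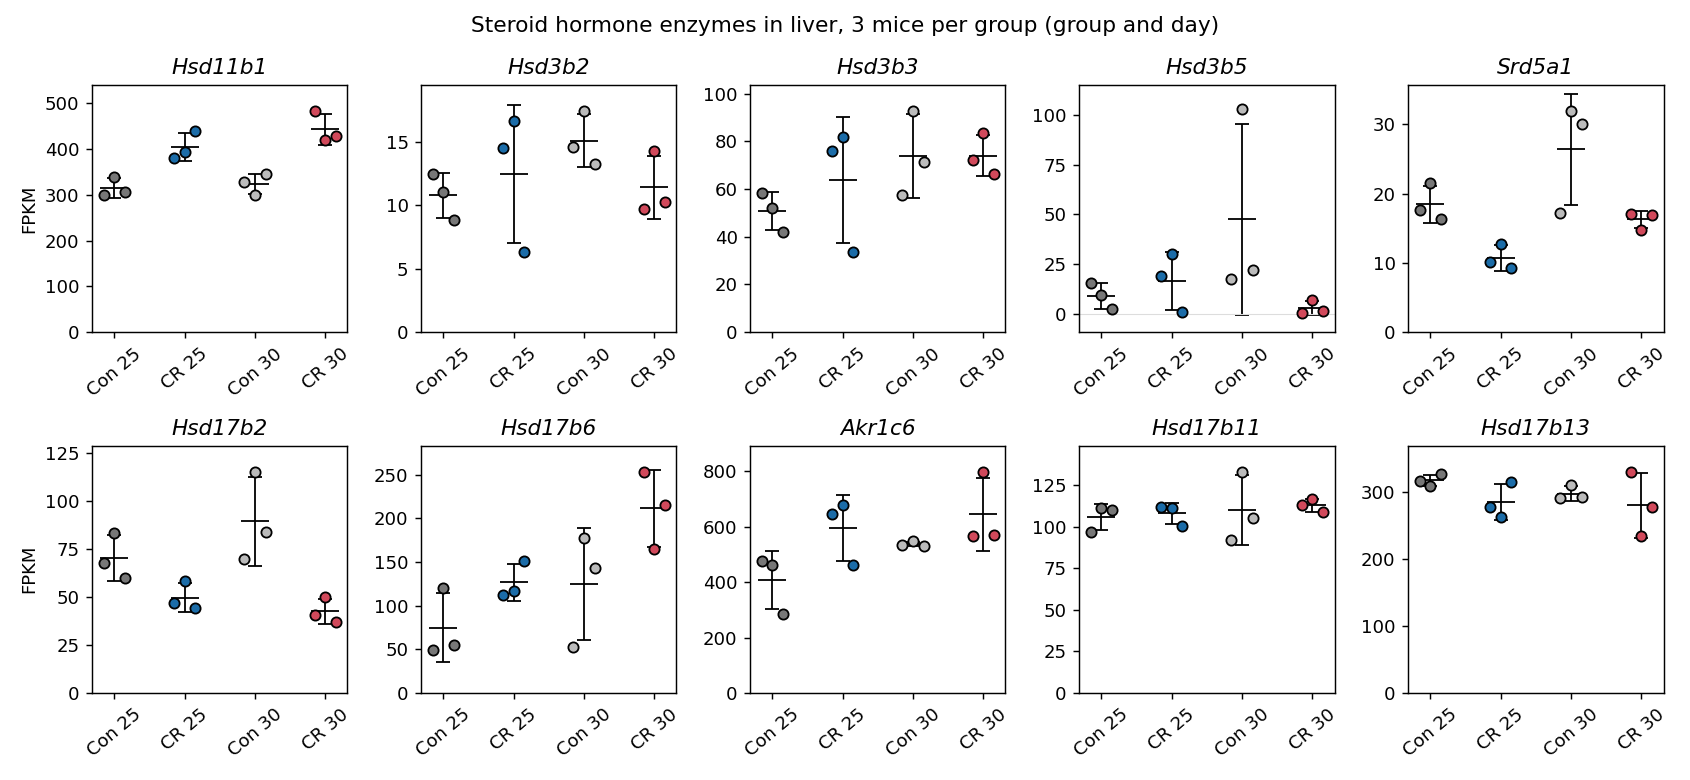
FPKM (y axis, linear) of the 10 genes in each mouse, by diet and day; points are single libraries, and the bar and whiskers are the mean and SD of 3 mice. The CR points lie above all Con points of the same day for Hsd11b1 at both days and below them for Srd5a1 and Hsd17b2 at both days, and the Hsd3b5 points of CR mice at day 30 lie between 0.295 and 6.97 FPKM.

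At day 25, 2 of the 10 genes passed the test of CR against Con, Hsd11b1 (higher) and Srd5a1 (lower), beside 14.9% of all genes tested. The groups did not overlap for 3 of the 10 genes, beside 28.2% of all genes. At day 30, 4 genes passed, Hsd11b1 (higher) and Srd5a1, Hsd17b2 and Hsd3b5 (lower), beside 24.7% of all genes. The groups did not overlap for 5 of the 10, beside 36.4%. In an alternative, the replicate number was a block, a pairing of the day-25 mice inferred from these data and not stated by the labels. With it, 5 of the 10 genes passed at day 25 (Hsd17b2, Hsd17b6 and Akr1c6 in addition), beside 19.6% of all genes. No test of the set against other genes was made. The median log2 fold change of the 10 genes was 0.17 at day 25 and −0.04 at day 30, against −0.04 and −0.07 over all genes tested. At least a 2-fold difference together with the adjusted p was met by 0 of the 10 genes at day 25, where 1.48% of all genes met it, and by 2 at day 30 (Hsd3b5 and Hsd17b2), where 2.21% did.

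**Figure D2:**
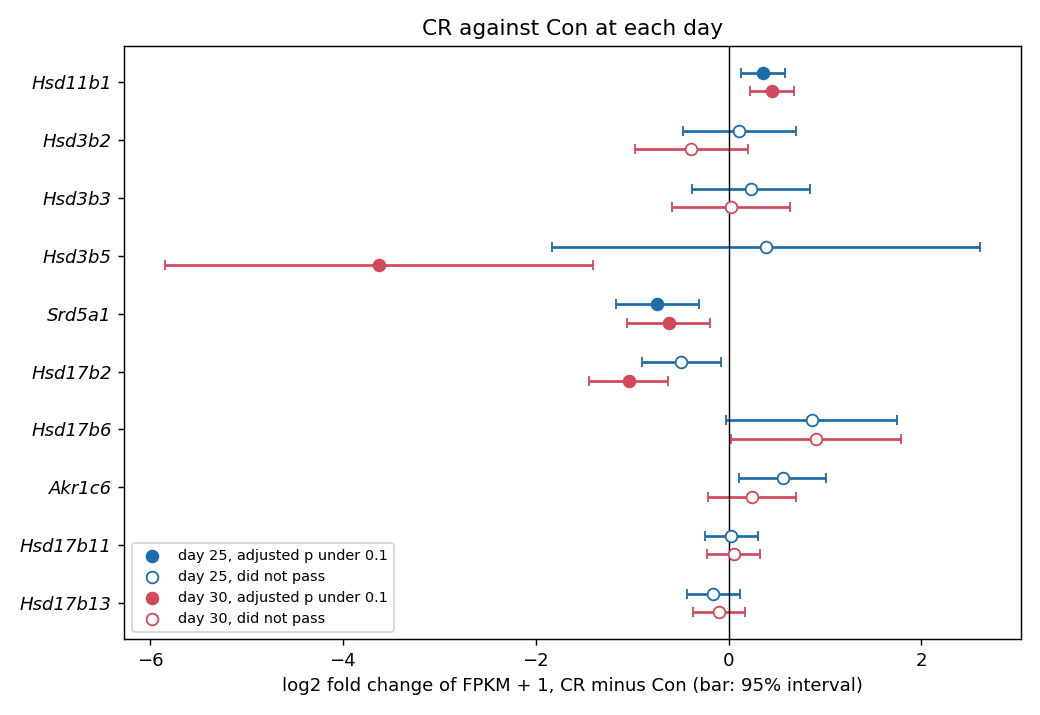
Log2 fold change of FPKM + 1 (x axis, CR minus Con) of each of the 10 genes at day 25 (blue) and day 30 (red), with 95% intervals from limma; filled points passed at an adjusted p under 0.1. Hsd11b1 lies right of 0 and Srd5a1 left of 0 at both days, and the interval of Hsd3b5 at day 30 runs from −5.84 to −1.41.

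Hsd11b1, the enzyme that regenerates active corticosterone from its inert keto form, rose in CR mice at both days. At day 25, the Con mice had 299, 339 and 307 FPKM and the CR mice 381, 393 and 440. At day 30, the Con mice had 327, 300 and 345 FPKM and the CR mice 482, 420 and 428. Every CR mouse was above every Con mouse of its day, and the 6 Con livers lay within a narrow range across the days. In limma, the log2 fold change was 0.36 ± 0.11 (SE) at day 25, with an adjusted p of 0.0557, and 0.45 ± 0.11 at day 30, with an adjusted p of 0.0147. These correspond to group means that were 28.3% and 36.7% higher. The call at day 25 was lost without Con7, Con9 or CR9, with adjusted p of 0.153, 0.144 and 0.188, and when only the 2 groups of that day were fitted (0.123), and the call at day 30 held without each mouse. H6pd, which supplies the cofactor for this reaction, did not pass at either day, with log2 fold changes of −0.06 and −0.14. Hsd11b2, which runs the reverse reaction in kidney, did not exceed 0.077 FPKM in any library. Nr3c1, the glucocorticoid receptor, had log2 fold changes of 0.00 and −0.16 and did not pass.

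Among the Hsd3b genes, Hsd3b5 fell in CR mice at day 30, and no other difference between Con and CR mice passed in this family. Hsd3b5 is a male-typical liver enzyme that reduces the keto group of dihydrotestosterone and related steroids, whereas Hsd3b2 and Hsd3b3 belong to the branch that oxidizes pregnenolone-type steroids. The Con mice at day 30 had 17.4, 103 and 22.2 FPKM of Hsd3b5 and the CR mice 0.295, 6.97 and 1.28. All 3 CR mice were below all 3 Con mice, and the lowest CR value rested on 11 reads. The log2 fold change was −3.62 ± 1.02 (SE), with an adjusted p of 0.0309 (limma). The mean fell by 94.0%, with 2.85 ± 3.60 FPKM in CR against 47.4 ± 47.9 FPKM in Con mice (SD, n = 3 each). The call was lost without Con11, the mouse at 103 FPKM (−2.85, adjusted p 0.112), and without CR10, the mouse at 0.295 FPKM (−3.05, adjusted p 0.125). On the recovered reads, which carry no pseudocount of 1 FPKM, voom gave −4.70.

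At day 25, Hsd3b5 did not separate the diets. Con mice had 15.3, 9.24 and 2.22 FPKM and the CR mice 18.8, 30.0 and 0.963. Both the highest and the lowest liver of that day were CR livers. The log2 fold change was 0.39, with a 95% interval from −1.83 to 2.61 and an adjusted p of 0.856 (limma). The CR effect at day 30 minus that at day 25 was −4.01 ± 1.44 (SE) for Hsd3b5, with an unadjusted p of 0.0163 and an adjusted p of 1.00 over all genes in limma, so the difference between the days did not pass. Con mice also differed between the days in the direction opposite to CR mice. All 3 Con mice of day 30 exceeded all 3 of day 25, with a log2 difference of 2.12 (adjusted p 0.683), while in CR mice day 30 minus day 25 was −1.89 (adjusted p 0.624), and neither passed in limma.

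Hsd3b3 was the most abundant Hsd3b gene in 11 of 12 libraries and showed no such pattern at day 30. The Con mice of day 30 had 57.6, 92.5 and 71.4 FPKM and the CR mice 72.3, 83.4 and 66.2, so the groups overlapped. Its log2 fold change was 0.02, with a 95% interval from −0.59 to 0.63. Hsd3b2 had 14.6, 17.4 and 13.3 FPKM in Con and 9.69, 14.3 and 10.2 in CR mice at day 30, which also overlapped, with a log2 fold change of −0.39 and a 95% interval from −0.97 to 0.20. At day 25, the log2 fold changes were 0.24 for Hsd3b3 and 0.11 for Hsd3b2, and neither passed. Without CR9, the lowest CR mouse, Hsd3b3 passed at that day (0.64, adjusted p 0.0853 in limma).

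The 3 Hsd3b genes ranked the mice of a group alike at day 25 and in part at day 30. The third mouse of each diet at day 25 (Con9 and CR9) was the lowest of its group for Hsd3b2, Hsd3b3 and Hsd3b5, and also for Akr1c6. Con7, CR8, Con11 and CR11 were each the highest mouse of their group in all 4 genes. At day 30 the lowest mouse differed between the genes, being Con12 for Hsd3b2 and Con10 for Hsd3b3 and Hsd3b5 among Con mice, and CR12 for Hsd3b3 and CR10 for Hsd3b2 and Hsd3b5 among CR mice. Within CR mice of day 25 the highest exceeded the lowest 31.1-fold for Hsd3b5, 2.63-fold for Hsd3b2, 2.44-fold for Hsd3b3 and 1.47-fold for Akr1c6. Across the 12 libraries, which share diet and day as sources of variation, Pearson's r of log2(FPKM + 1) was 0.860 between Hsd3b2 and Hsd3b5, 0.841 between Hsd3b2 and Hsd3b3 and 0.558 between Hsd3b3 and Hsd3b5, given as descriptions without a test.

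**Figure D3:**
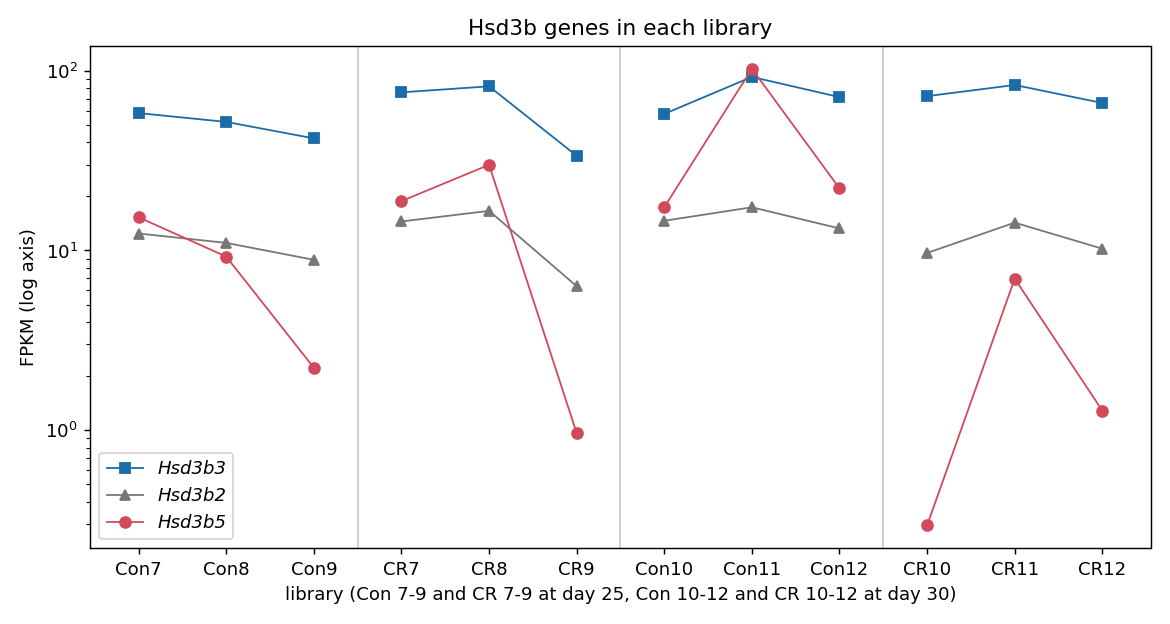
FPKM (y axis, log scale) of Hsd3b2, Hsd3b3 and Hsd3b5 in each of the 12 libraries; lines join the 3 mice of a group for reading only, and grey lines part the groups. Con9 and CR9 are the lowest of their groups for all 3 genes, and in the CR mice of day 30 only Hsd3b5 lies apart from its Con levels, between 0.295 and 6.97 FPKM.

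Reads of such close copies can be hard to place. Of the 100-base windows of each transcript, 12.1% for Hsd3b2 and 6.84% for Hsd3b3 also occur in another Hsd3b gene, and 7.79% for Hsd3b5 in Hsd3b4 or in the predicted genes Gm10681 and Gm4450. Hsd3b1 and Hsd3b6 were listed at 0 in all 12 libraries, and Hsd3b4 reached at most 0.028 FPKM. Gapdh, which has many copies in the genome, was listed at no more than 1.04 FPKM, so a listing near 0 does not show that a gene with close copies is silent. Exons of Zfp697 on the opposite strand overlap 5.54% of the Hsd3b2 and 9.87% of the Hsd3b3 transcript. Without strand, the reads there cannot be told apart, and Zfp697 itself was at 0.085 to 0.227 FPKM.

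Srd5a1 (chr13:69573449-69611463), the steroid 5-alpha reductase that turns testosterone into dihydrotestosterone and starts the inactivation of corticosterone, fell in CR mice at both days. Con mice of day 25 had 17.6, 21.5 and 16.4 FPKM and the CR mice 10.1, 12.8 and 9.26. At day 30, the Con mice had 17.2, 31.9 and 30.1 FPKM and the CR mice 17.0, 14.8 and 17.0. The groups did not overlap at either day, although the highest CR mouse of day 30 lay just under the lowest Con mouse. CR against Con gave a log2 fold change of −0.74 ± 0.20 (SE) at day 25, with an adjusted p of 0.0376 (limma), and −0.62 ± 0.20 at day 30, with an adjusted p of 0.0502. The day-25 call was lost without Con8, CR7 or CR9 (adjusted p 0.106 to 0.127), and the day-30 call without Con11, Con12, CR10 or CR11 (adjusted p 0.107 to 0.174) and without the filter on low values (0.102). Over both days, with day as a covariate, the log2 fold change was −0.68 ± 0.14, with an adjusted p of 0.0025. Levels were higher at day 30 than at day 25 in both diets, with log2 differences of 0.57 in CR mice, where the days did not overlap, and 0.45 in Con mice (adjusted p 0.402 and 0.676 in limma). The predicted gene Gm17108 overlaps 18.0% of the exon bases of Srd5a1 on the same strand, and 14.9% of its 100-base windows are shared with it.

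Hsd17b2, which inactivates estradiol, testosterone and dihydrotestosterone by oxidation, fell in CR mice at day 30. The Con mice of day 30 had 69.8, 115 and 83.6 FPKM and the CR mice 40.6, 49.8 and 37.1. The groups were clearly apart, and the mean fell by 52.5%. The log2 fold change was −1.04 ± 0.19 (SE), with an adjusted p of 0.00355 (limma), and it passed without each mouse, with values from −1.20 to −0.84. At day 25, the Con mice had 67.9, 83.6 and 59.8 FPKM and the CR mice 46.8, 58.2 and 44.1. These groups did not overlap either, by a margin of 58.2 against 59.8 FPKM, but the log2 fold change of −0.49 ± 0.19 did not pass (adjusted p 0.128). With the replicate block, the adjusted p was 0.0152 (limma). The gene also passed at day 25 with TPM (adjusted p 0.0892) or quantile normalization (0.0686) and without CR8 (0.0976) or Con11 (0.0777). The difference between the effects of the days was −0.55, with a 95% interval from −1.12 to 0.03 and an adjusted p of 1.00.

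Hsd17b6, which oxidizes androstanediol back to dihydrotestosterone and is closely related to retinol dehydrogenases, had higher means in CR mice that did not pass at either single day. The Con mice had 49.1, 120 and 54.6 FPKM at day 25 and 53.0, 178 and 143 at day 30. The CR mice had 113, 116 and 151 FPKM at day 25 and 253, 165 and 216 at day 30. Con8 at day 25 and Con11 at day 30 lay above the lowest CR mouse of their day, so the groups overlapped, while every CR mouse of day 30 was above every CR mouse of day 25. The log2 fold change was 0.86 ± 0.41 (SE, adjusted p 0.212, limma) at day 25 and 0.91 ± 0.41 (adjusted p 0.147) at day 30. With the replicate block, the adjusted p of day 25 was 0.0873. The gene also passed at day 25 without Con8 (1.26, adjusted p 0.0849) or Con10 (adjusted p 0.0930) and at day 30 without Con11 (1.25, adjusted p 0.0767). Over both days the log2 fold change was 0.88 ± 0.28, with an adjusted p of 0.0282, so Hsd17b6 rose in that comparison. Of its 100-base windows, 11.0% also occur in Rdh genes next to it, among them Rdh7 (472 to 700 FPKM per library) and Rdh9, which rose in CR mice at both days.

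Akr1c6, an aldo-keto reductase of liver that interconverts androstenedione and testosterone, was the most abundant of the genes. Con mice of day 25 had 478, 461 and 286 FPKM and CR mice 646, 680 and 461. At day 30, the Con mice had 535, 547 and 532 FPKM and the CR mice 568, 797 and 570. CR mice were higher throughout at day 30, while at day 25 the lowest CR mouse lay between the Con mice. Neither day passed, with log2 fold changes of 0.56 ± 0.21 (SE, adjusted p 0.117, limma) and 0.24 ± 0.21 (adjusted p 0.446). The day-25 adjusted p was 0.0152 with the replicate block, 0.0640 with median-ratio scaling, 0.0954 with voom on the recovered reads and 0.0768 without CR9. Over both days the log2 fold change was 0.40 ± 0.15, with an adjusted p of 0.0551, and this call was lost without CR7, CR8 or CR11 (adjusted p up to 0.114) and without the filter or with quantile normalization (up to 0.148).

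The pair that sits on lipid droplets of hepatocytes differed little between the diets. Hsd17b11 and Hsd17b13 lie 12.4 kb apart on chromosome 5 (chr5:103989765-104021796 and chr5:103963465-103977388, minus strand). Hsd17b13 had 316, 310 and 327 FPKM in Con and 278, 263 and 316 in CR mice at day 25, and 291, 311 and 293 in Con and 330, 234 and 278 in CR mice at day 30. CR against Con gave a log2 fold change of −0.16, with a 95% interval from −0.43 to 0.11, at day 25 and −0.10 (−0.37 to 0.17) at day 30. Over both days, Hsd17b13 did not pass (−0.13, adjusted p 0.261, limma). It passed as lower there with quantile normalization (−0.24, adjusted p 0.0647) and without CR10 (−0.19, adjusted p 0.0880). Hsd17b11 ranged from 91.9 to 133 FPKM over the 12 libraries. Its log2 fold change was 0.03 (−0.25 to 0.31) at day 25 and 0.05 (−0.22 to 0.33) at day 30.

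Over both days, 5 of the 10 genes passed, Hsd11b1, Hsd17b6 and Akr1c6 higher and Srd5a1 and Hsd17b2 lower in CR mice, beside 40.6% of all genes. In this comparison the log2 fold change was 0.40 ± 0.07 (SE) for Hsd11b1, with an adjusted p of 0.00129, and −0.76 ± 0.15 for Hsd17b2, with an adjusted p of 0.00207 (limma). Hsd3b5 did not pass (−1.62 ± 0.89, adjusted p 0.182), but did without Con9 (−2.14, adjusted p 0.0786) or CR8 (−2.18, adjusted p 0.0655). Across the 12 libraries, Pearson's r between Hsd11b1 and Hsd17b2 was −0.811, a description of livers that share diet.

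The days were then compared within each diet and between the diets. None of the 10 genes passed in the difference of the CR effects between the days (0.00944% of all genes, 1 of them), in day 30 against day 25 within CR mice (0.321%) or in the same within Con mice, where 0 of all genes passed (0.0%). At an unadjusted p under 0.05 in limma, 1 of the 10 genes was found in each comparison. These were Hsd3b5 in the difference of the effects (beside 3.46% of all genes) and Srd5a1 within CR (8.66%) and within Con mice (7.22%). At the adjusted p under 0.1, voom on the recovered reads passed 0 of the 10 in each comparison, as the main fit did. All mice of day 30 lay above all mice of day 25 for 2 of the 10 genes within CR mice (Hsd17b6 and Srd5a1), beside 6.32% of all genes, and for 3 within Con mice (Hsd3b2, Hsd3b5 and Akr1c6), beside 7.23%.

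A wider list of 34 genes of steroid metabolism, transport and reception was counted alongside. Of these, 33 are in the table and 20 reached the filter. At day 25, 7 of the 20 passed (35%, beside 14.9% of all genes), 5 higher and 2 lower in CR mice, with a median log2 fold change of 0.08. At day 30, 9 passed (45%, beside 24.7%), 5 higher and 4 lower, with a median of 0.04. Both days were passed by 5 of the genes (Serpina6, Esr1, Nr3c2, Rdh9 and Akr1c20). The list was drawn up with earlier results of these data known, so its shares beside those of all genes are no test.

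Serpina6, the corticosteroid-binding globulin of plasma, rose from 84.3 ± 10.3 (SD, n = 3) to 219 ± 64.5 FPKM at day 25 and from 106 ± 12.1 to 257 ± 72.6 at day 30. Its log2 fold change was 1.32 (adjusted p 0.00481, limma) and 1.24 (0.00394). Among hormone receptors, Esr1, the estrogen receptor, rose (1.10 and 1.11) and Nr3c2, the mineralocorticoid receptor, fell (−0.87 and −0.97), both at levels under 11 FPKM. Rdh9, a short-chain dehydrogenase, rose by 1.25 and 1.56 on the log2 scale, and Akr1c20, an aldo-keto reductase, by 0.52 and 0.52. The Akr1c20 calls were lost without Con8, Con9, CR7 or CR8 at day 25 (adjusted p up to 0.227, limma) and without Con11, Con12, CR10 or CR11 at day 30 (up to 0.166). Its day-25 call was also lost without the filter on low values (0.124) and with only the groups compared (0.122).

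The other 6 genes passed at 1 of the days. Akr1c19 was higher (0.54) and Srd5a3, which acts in dolichol synthesis, was lower (−0.30) at day 25. At day 30, Cyp7b1, the oxysterol and steroid 7-alpha hydroxylase that is typical of male liver, was lower by the largest amount of the list (−1.81, adjusted p 0.00654, limma). Hsd17b7, which acts in cholesterol synthesis, was lower (−0.90), as was the peroxisomal Hsd17b4 (−0.34). Akr1d1, the 5-beta reductase that inactivates steroids and acts in bile acid synthesis, was higher (0.52, adjusted p 0.0995), close to the threshold. Calls were lost for Srd5a3 without Con7, Con8, CR8 or CR9 (adjusted p up to 0.206, limma), for Hsd17b4 without Con11, CR10 or CR12 (up to 0.144) and for Akr1d1 without any mouse other than Con12 (up to 0.327). Srd5a3 also lost its call without the filter, with only the groups compared and with voom (up to 0.111), and Hsd17b4 with median-ratio scaling (0.103). Akr1d1 lost it with a pseudocount of 0.1, TPM, quantile normalization, no filter or only the groups compared (up to 0.175). In turn, Hsd17b4 passed at day 25 with quantile normalization (0.0559) and Akr1c19 at day 30 with median-ratio scaling (0.0764).

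**Figure D4:**
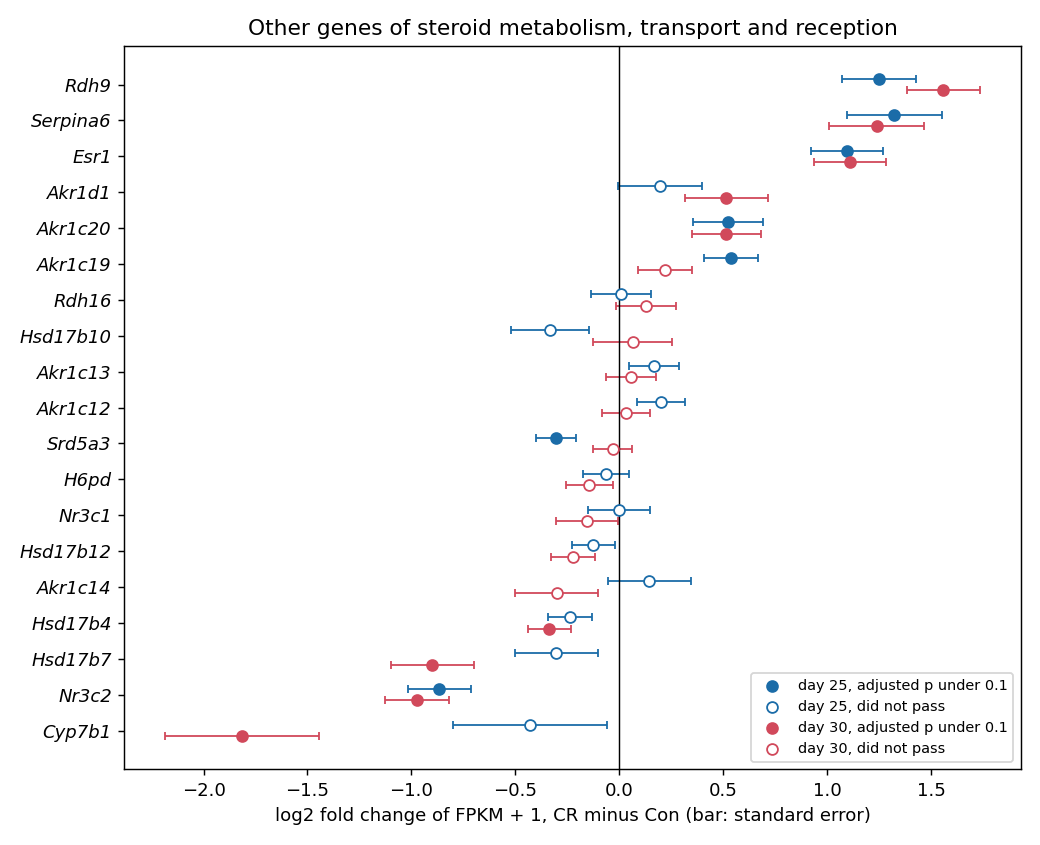
Log2 fold change of FPKM + 1 (x axis, CR minus Con) with its standard error for 19 of the 20 tested genes of the wider steroid list at day 25 (blue) and day 30 (red); filled points passed at an adjusted p under 0.1. Rdh9, Serpina6 and Esr1 lie above 1 at both days, and Cyp7b1 lies lowest at day 30, at −1.81.

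Of 7 genes of adrenal and gonadal steroid synthesis, 4 were listed at 0 in all libraries, among them Cyp11a1 and Cyp19a1, and Star was near 1 FPKM. Cyp17a1, the 17-alpha hydroxylase, was the only one to reach the filter. It rose from 8.42 ± 3.43 (SD, n = 3) to 32.5 ± 17.9 FPKM at day 25 and from 5.45 ± 3.23 to 22.5 ± 10.6 FPKM at day 30, with log2 fold changes of 1.77 (adjusted p 0.0413, limma) and 1.88 (0.0218). The day-25 call was lost without Con7, Con8 or CR9 (adjusted p up to 0.151) and without the filter on low values (0.101).

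Genes known for a sex difference in mouse liver were counted in the same livers. Of 14 male-biased genes, which include Cyp7b1, 9 were lower at day 25 and 14 at day 30 in CR mice, beside 9.34% and 16.4% of all genes. Their summed level was 9009 to 12390 FPKM in Con and 486 to 1097 in CR mice at day 30, and 6771 to 11450 against 1059 to 3914 at day 25. Of 17 listed female-biased genes, 12 reached the filter, of which 8 were higher at day 25 and 11 at day 30. Among all genes, 5.6% and 8.33% were higher. Cyp2b9, Cyp2b13, Cyp2a4, A1bg and Slc22a26 reached the filter only through CR livers, with Con means of at most 0.211 FPKM. For these the filter itself favoured a higher level in CR mice, so the count cannot be set against the share of all genes. These lists were drawn up with earlier results of these livers known, and their part in the levels of the steroid enzymes was not tested.

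Markers of other liver cells also differed. At day 30, the summed stellate cell markers were 133 to 152 FPKM in CR and 84.2 to 111 in Con mice, with 3 of 5 passing, all higher, and the endothelial markers were 41.3 to 46.7 against 30.2 to 33.7, with 3 of 5 higher. Hepatocyte markers summed to 52520 to 63670 FPKM in CR and 35670 to 44550 in Con mice of day 30, with 3 of 5 higher. Of all genes, 8.33% were higher at that day. Most of the hepatocyte sum was Alb, with means of 46410 FPKM in CR and 29730 in Con mice. Apoa1 (log2 fold change −0.23) and Ttr (0.12) did not pass. At day 25, Kupffer cell markers were 21.5 to 28.5 FPKM in CR and 33.3 to 54.9 in Con mice, with 3 of 5 lower, beside 9.34% of all genes. Marco of this list went the other way at that day without passing (log2 fold change 0.37). At day 30, Marco passed as higher (0.79, adjusted p 0.0349, limma), and no Kupffer cell marker passed as lower. Of 5 adrenal cortex markers, 3 were at 0 in all libraries, and the list summed to at most 1.75 FPKM. The part of these cell types in the results was not tested.

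For 3 of the enzymes, the 5 tested genes most like them in level across the 12 libraries were looked up by Pearson's r of log2(FPKM + 1), as a description. Hsd3b5, which differed most at day 30, was followed most closely by Cux1 (0.932), Hspb11 (0.924), Klhl26 (0.922), Nudt7 (0.916) and C8a (0.910). Hsd17b6, which had the largest log2 fold change at day 25, was followed by Gdap10 (0.916), Cnmd (0.904), Zfp821 (0.866), Ces2g (0.861) and Tbpl1 (0.859). Akr1c6, the most abundant gene, was followed by Sat1 (0.925), its relative Akr1c12 (0.921), 5830473C10Rik (0.910), Cyp4f14 (0.895) and Slc44a3 (0.895).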

How the data were processed

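Total liver RNA was sequenced as 100-base paired-end reads on 1 lane, per the labels. The submitters' processing notes name CASAVA 1.8.2, FastQC, BWA and DESeq2 with build mm10. The authors deposited FPKM values, which the table's header records as made by HOMER from exon reads for 1 condensed transcript per gene, unscaled between libraries. Because these are not counts, DESeq2 was not used here.

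The 10 genes and all lists were chosen with earlier results of these data known. Levels were analyzed as log2(FPKM + 1), with a pseudocount of 1, for 10593 genes at 1 FPKM or more in at least 3 libraries. A limma 3.58.1 model (R 4.3.3) of the 4 groups, with a trend on expression and 2-sided tests, gave each comparison, and CR against Con over both days had day as a covariate. The model was tested on simulated data. Whole reads were recovered from the steps of the FPKM values (100% of 1500 low values per library within 0.1 read), and voom on these reads was an alternative. The columns of the Con mice at day 30 could be tied to their group but not to a single labelled sample. Replicate numbers at day 25 were used in an alternative as a pairing of the mice that the labels do not state. The pairing was inferred because same-numbered mice deviated together (correlations of 0.106 to 0.368, others −0.287 to 0.0134). Since the block was then fitted to the same libraries, its adjusted p are no separate support. Replicates are separate mice by their labels.

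All 10 genes are described, and other steroid genes are named where they passed or where a result turns on them. The genes most like an enzyme were taken for the enzyme with the largest log2 fold change at each day and for the most abundant one. Alternatives changed the pseudocount, filter, scaling, model, thresholds and mice included. Promoter windows come from RefSeq (GRCm38.p6), and transcripts and exon overlaps from GENCODE on the same build. Proteins are not shown, and 1 gene of the wider steroid list is not reported here by name. Biopython 1.88 gave the alignments and matplotlib 3.10.9 the figures, under Python 3.11.15 with numpy 2.4.6 and pandas 2.3.3.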

Additional observations from a re-analysis of the deposited data

How the results depend on the processing

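Of the 10 genes, 2 passed at day 25, 4 at day 30 and 5 over both days. At day 25, the count was 1 at an adjusted p under 0.05, 1 when only the groups compared were fitted and 5 with the replicate block (beside 19.6% of all genes, against 14.9% without it), and leaving out each mouse gave 1 to 3 (1 without Con7, Con9 or CR7). At day 30, leaving out each mouse gave 2 to 4, with 2 without CR10. Asking for at least a 2-fold difference as well left 0 at day 25, 2 at day 30 and 0 over both days. The cause was not tested. The difference of the effects and the days within a diet gave 0 under all alternatives run. Cyp7b1 of the wider list also passed with the block, which changed no other call at day 25. No paired analysis was made at day 30, where the labels do not tie the columns of the Con mice to the numbered samples. With 3 mice per group, the depth of 15.75 to 23.35 M reads limits genes of few reads.

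The signs of some small differences that did not pass turned with the scaling. Quantile normalization gave −0.056, −0.012 and −0.034 for Hsd17b11 at day 25, at day 30 and over both days, −0.023 for Hsd3b3 at day 30 and 0.054 for Srd5a3 at day 30. TPM gave −0.011 for Hsd3b3 and median-ratio scaling 0.035 for Srd5a3, both at day 30. Among all genes, 593 were higher and 989 lower at day 25 and 882 higher and 1737 lower at day 30, against 855 and 854, and 1326 and 1261, with median-ratio scaling. TPM put the median of all genes at −0.11 at day 30.

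Leaving out each mouse turned the sign of other differences that did not pass. At day 25, the values ran from −0.13 to 0.50 for Hsd3b2, from −0.38 to 1.61 for Hsd3b5 and from −0.036 to 0.078 for Hsd17b11. At day 30, they ran from −0.14 to 0.20 for Hsd3b3, from −0.068 to 0.20 for Hsd17b11, from −0.23 to 0.022 for Hsd17b13 and from −0.10 to 0.012 for Srd5a3. Over both days, they ran from −0.27 to 0.0077 for Hsd3b2 and from −0.014 to 0.10 for Hsd17b11. For the difference of the effects, Srd5a1 ran from −0.15 to 0.27.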
